A study of Homo sapiens with 6 samples.

Results

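The genes described here are 10 subunits of the integrin family, of which 6 encode alpha chains (ITGA1, ITGA2, ITGA3, ITGA5, ITGA6 and ITGAV) and 4 encode beta chains (ITGB1, ITGB3, ITGB4 and ITGB5). They were chosen by name, with earlier results of these data known, and make up 10 of the 26 human integrin subunit genes among the 20030 genes of the count table. Their transcripts were measured by mRNA sequencing in HepG2 cells, a human hepatoma line, that were given control shRNA or shRNA directed against KIF11. The groups are called sh-ctrl and sh-KIF11 and hold 3 libraries each. Both groups thus carried an shRNA, and the comparison asks how the subunits differ when KIF11, the kinesin that holds the spindle poles apart in mitosis, is knocked down in this single line. The labels do not say that the 3 libraries of a group came from separate cultures, so p-values measure only the spread between these libraries, which may be technical. Whether the 3 sh-KIF11 libraries carried the same shRNA is not given in the labels either.

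Integrins are heterodimers of an alpha and a beta chain that span the plasma membrane. The outer part binds matrix proteins, and the short tail of the beta chain is tied to actin through talin, kindlin and other adaptors, or to keratin filaments in hemidesmosomes. The chains pair by rule. ITGB1 joins most of the alpha chains and so forms receptors for collagen, laminin and fibronectin, whereas ITGB3 and ITGB5 join ITGAV to form receptors for ligands with an RGD motif, and ITGB4 joins ITGA6 only. In the liver, integrins anchor hepatocytes to the matrix of the space of Disse and tie biliary cells to their basement membrane.

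In sh-KIF11 cells ITGB1, the common beta chain, and 4 of its alpha partners were higher than in sh-ctrl cells. ITGAV was 2.06-fold higher, ITGA2 1.73-fold, ITGB1 1.24-fold and, at much lower levels, ITGA3 7.30-fold and ITGA5 3.46-fold. ITGA1, a collagen-binding alpha chain, was lower by a factor of 1.81, and ITGB5 was lower by a factor of 1.15 in a call that depended on the scaling between libraries. The laminin receptor chains ITGA6 and ITGB4 did not pass the test. ITGB3 was at or near the detection limit and was not tested.

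Calls were made with edgeR's quasi-likelihood test on the counts, fitted to 12369 genes, at a Benjamini-Hochberg adjusted p under 0.05. Levels are CPM, a library's counts scaled to the same total and adjusted by TMM, a method that adjusts for differences in RNA composition between libraries. Total counts ranged from 18167773 to 19583282 per library. Of the 10 subunits, 9 were tested, 5 were called higher and 2 lower. The 7 called members are 77.8% of those tested, beside 69.1% of all tested genes, so the number of calls by itself says little about integrins. By direction, 55.6% of the tested members were higher beside 34.4% of all tested genes, and 22.2% were lower beside 34.7%. ITGA5 entered the test only through its higher counts in sh-KIF11 cells, so it had to differ to be counted. Of the 8 members that reached the low-count filter's minimum in both groups, 4 were higher and 2 lower. Of all 11566 such genes, 3748 were higher and 4239 lower. The CPM of the 2 groups did not overlap for the same 5 higher members and 2 lower members, a pattern found in the higher direction in 35.4% and in the lower direction in 35.8% of all tested genes. The median log2 fold change was 0.32 for the 9 tested members, 0.19 for the 8 without ITGA5, and 0.00 for all tested genes. Over all 26 human integrin subunits, 15 were tested, 6 were higher and 4 lower, and the median was 0.07. Among the 6 tested subunits that are not members, 1 was higher and 2 lower (median -0.25). The lean of the members towards higher values thus does not describe the whole family.

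The targeted gene was read first as a check of the labels. The counts of KIF11 were 1976, 2088 and 2039 with the control shRNA and 1448, 1478 and 1240 with the knockdown, and its log2 fold change was -0.75 (SE 0.0573, edgeR quasi-likelihood adjusted p = 4.22e-15). HepG2 is a line with hepatocyte features, and the labelled cell type was checked against defining genes. Of 10 hepatocyte and HepG2 markers, all were expressed, 9 were lower in sh-KIF11 cells and TTR was not called, and their summed level fell from between 34256 and 35855 CPM to between 15400 and 16508 CPM. Among 4 leukocyte markers, PTPRC had at most 1 count and CD3E at most 3 in any library, while CD14 and LYZ were lower, with a summed level for the list of 2393 to 2899 CPM in sh-ctrl and 458.8 to 594.9 CPM in sh-KIF11 libraries, most of it LYZ. The 4 endothelial markers summed to 3.16 to 3.55 CPM and 4.68 to 4.98 CPM, with CDH5 and KDR at most at 2 counts and VWF higher. Of 6 stellate cell or fibroblast markers, DCN was at 0 in every library, LUM had at most 1 count, COL1A1 at most 6 and COL3A1 at most 3, PDGFRB was lower and ACTA2 was higher, and the list summed to 93.3 to 97.5 CPM and 185.6 to 198.0 CPM. The part of the hepatocyte and ACTA2 shifts in the integrin values was not tested. In bulk RNA, fewer cells with a given level and less RNA per cell cannot be told apart.

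**Figure D1:**
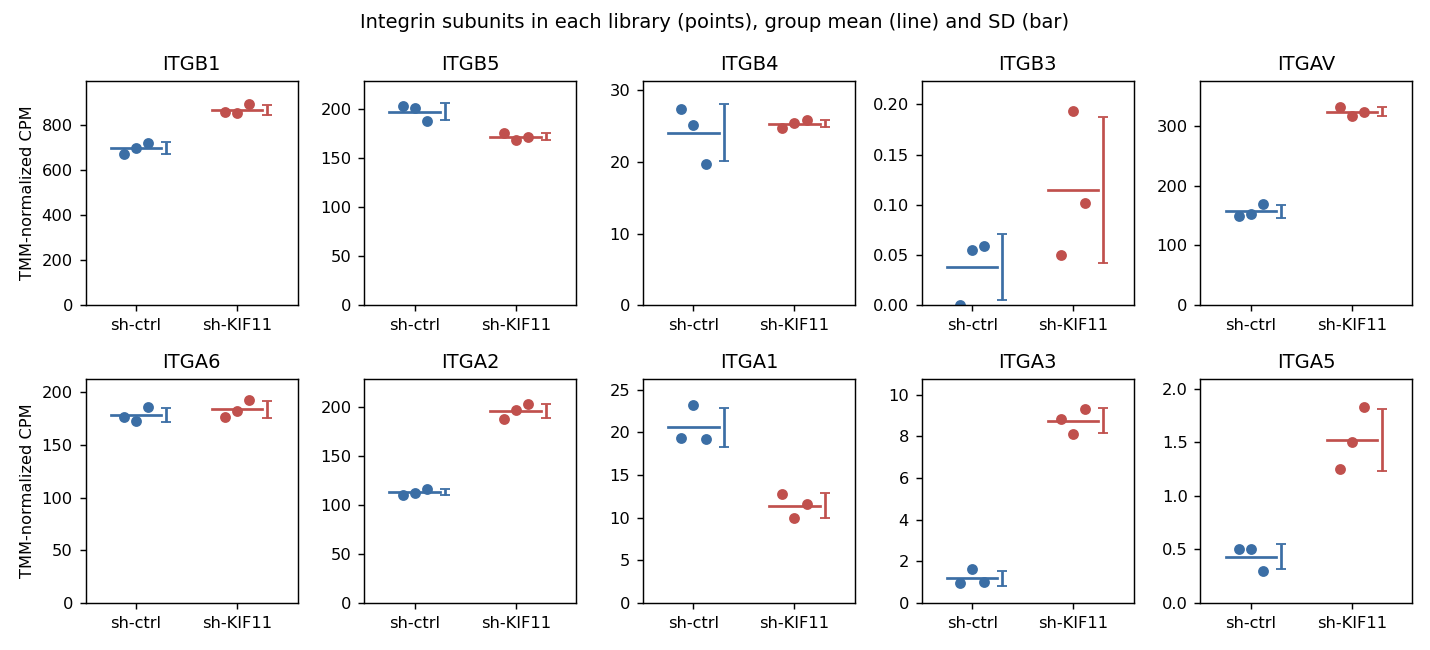
TMM-normalized CPM (vertical axes, each from 0) of the 10 integrin subunits in the 3 sh-ctrl and 3 sh-KIF11 libraries, with points for libraries, horizontal lines for group means and bars for the SD. The groups are apart for 5 members that were higher and for ITGB5 and ITGA1, which were lower, and they overlap for ITGB4, ITGA6 and ITGB3, the last of which lies at a few counts.

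ITGB1 (chr10:32900319-33005792, minus strand, GRCh38) encodes the beta chain shared by the receptors for collagen, laminin and fibronectin. It was by far the most abundant member. The sh-ctrl libraries held 11982, 12661 and 12199 counts and the sh-KIF11 libraries 17263, 17662 and 17661. After scaling, the level was 671.5, 701.3 and 722.5 CPM in sh-ctrl and 860.0, 852.9 and 895.1 CPM in sh-KIF11 cells. Every sh-KIF11 library was above every sh-ctrl library. The log2 fold change was 0.32 (SE 0.0475, 95% confidence interval 0.22 to 0.41, edgeR quasi-likelihood adjusted p = 1.93e-07), a modest step beside those of ITGAV and ITGA2.

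ITGAV (chr2:186590065-186680901, plus strand) encodes the alpha chain of the vitronectin receptor and of the receptors that bind latent TGF-beta. The control libraries held 2669, 2757 and 2848 of its counts and the knockdown libraries 6663, 6557 and 6368, and its mean level went from 157 ± 10.2 to 324 ± 7.71 CPM (SD, n = 3 each). The lowest sh-KIF11 library was far above the highest sh-ctrl library. With a log2 fold change of 1.04 (SE 0.0513, 95% confidence interval 0.94 to 1.15, edgeR quasi-likelihood adjusted p = 2.40e-21), it had the largest change among the 5 members with more than 1000 counts in every library, which are ITGB1, ITGAV, ITGA2, ITGA6 and ITGB5. Together with ITGA3 and ITGA5 it was one of 3 members called and at least 2-fold higher, as were 8.13% of all tested genes. Of these, ITGA5 passed the low-count filter only through its sh-KIF11 libraries and so had to be higher to be counted.

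Among the members, collagen receptors are formed by ITGB1 with ITGA1 or ITGA2, and these alpha chains moved in opposite directions. ITGA2 (chr5:52989326-53094779, plus strand), the collagen receptor of platelets and epithelia, was counted 1975, 2033 and 1972 times in the control and 3781, 4079 and 4014 times in the knockdown. The mean CPM rose from 113 ± 3.12 to 196 ± 7.56 (SD, n = 3 each), which is a log2 fold change of 0.79 (SE 0.0509, 95% confidence interval 0.69 to 0.89, edgeR quasi-likelihood adjusted p = 1.84e-17). ITGA1 (chr5:52787896-52959210, plus strand), which prefers the collagen of basement membranes, was counted 345, 419 and 324 times in the control and 256, 205 and 228 times in the knockdown. The mean CPM was 20.6 ± 2.28 in sh-ctrl and 11.4 ± 1.43 in sh-KIF11 cells (SD, n = 3 each), with a log2 fold change of -0.85 (SE 0.102, 95% confidence interval -1.06 to -0.65, edgeR quasi-likelihood adjusted p = 1.01e-09). For neither gene did the groups overlap. ITGA1 and ITGA2 are neighbours on the same strand, with 30.1 kb between the annotated end of the first and the start of the second. ITGA1 also shares its strand and part of its span with PELO, a ribosome rescue factor. How reads of shared sequence were counted is not given in the sources used here, so the counts of both genes could be affected. PELO had a log2 fold change of -0.24 (edgeR quasi-likelihood adjusted p = 0.00868) that lost its call without sh-KIF11 replicate 2 (adjusted p = 0.085) and was -0.01 with library totals, whereas that of ITGA1 was -0.62 on that scale.

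Promoter sequence in RefSeq (GRCh38.p14) was matched by symbol for 7 of the 10 members. The 250 bases before the first listed start are shown for the collagen receptor chains that moved in opposite directions, for ITGAV and for their common partner ITGB1, each 5′ to 3′ on the gene's strand. Capitals mark the GC box, GGGCGG read on either strand (CCGCCC on the other).
ITGA2 (chr5:52989102-52989351, plus strand): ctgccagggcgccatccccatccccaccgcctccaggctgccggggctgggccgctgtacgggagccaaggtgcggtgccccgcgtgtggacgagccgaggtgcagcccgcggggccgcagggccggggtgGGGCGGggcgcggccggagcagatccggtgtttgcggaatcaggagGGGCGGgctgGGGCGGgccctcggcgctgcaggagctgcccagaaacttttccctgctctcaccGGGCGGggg
ITGA1 (chr5:52787666-52787915, plus strand): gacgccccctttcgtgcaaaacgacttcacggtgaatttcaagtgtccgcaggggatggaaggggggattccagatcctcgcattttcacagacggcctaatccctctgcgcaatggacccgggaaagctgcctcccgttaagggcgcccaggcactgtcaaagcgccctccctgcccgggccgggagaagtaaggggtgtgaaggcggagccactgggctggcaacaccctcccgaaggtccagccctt
ITGAV (chr2:186589806-186590055, plus strand): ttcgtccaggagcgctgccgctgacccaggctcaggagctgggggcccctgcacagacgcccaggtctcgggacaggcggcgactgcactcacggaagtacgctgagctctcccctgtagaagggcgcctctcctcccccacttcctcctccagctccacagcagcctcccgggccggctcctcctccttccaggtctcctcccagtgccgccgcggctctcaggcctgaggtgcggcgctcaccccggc
ITGB1 (chr10:32958231-32958480, minus strand): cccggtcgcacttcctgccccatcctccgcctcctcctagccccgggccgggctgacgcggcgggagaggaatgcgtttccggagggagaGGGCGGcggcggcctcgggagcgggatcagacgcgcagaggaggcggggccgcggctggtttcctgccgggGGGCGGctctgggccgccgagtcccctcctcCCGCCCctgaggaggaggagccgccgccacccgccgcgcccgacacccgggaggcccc
The ITGA2 window held 4 GC boxes and the ITGB1 window 3, while the windows of ITGA1 and ITGAV held none. Of the members not shown, the first listed window of ITGB5 held 2, that of ITGA5 held 1 and that of ITGA6 none. The ITGA1 window ends just before the annotated start of PELO (chr5:52787940) on the same strand. Of the 35116 promoter windows of this length in the table, 42.6% held a GC box. The same windows were searched on both strands for the CCAAT box (CCAAT, in 32.0% of all windows), the TATA box (TATAAA, in 10.7%) and the AP-1 site (TGANTCA, in 6.57%), with no overlap between these motifs and the GC box, and none of the 4 windows shown held one. The ITGB1 window lies inside the annotated span of the gene given above. The window of a second listed ITGB1 start held 3 TATA box matches and no GC box. A match or its absence describes these letters in its own window only.

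ITGA3 (chr17:50055968-50090481, plus strand) encodes the alpha chain of a laminin receptor of epithelia. It had the largest fold change of the tested members, from a low base. The sh-ctrl libraries held 17, 29 and 17 counts and the sh-KIF11 libraries 177, 168 and 184. The level went from 1.19 ± 0.363 to 8.75 ± 0.609 CPM (SD, n = 3 each), with a log2 fold change of 2.87 (SE 0.197, edgeR quasi-likelihood adjusted p = 1.60e-16) and a 95% confidence interval of the fold from 5.54 to 9.62. ITGA5 (chr12:54395261-54419460, minus strand), the alpha chain of the main fibronectin receptor, was rarer still, with 9, 9 and 5 counts against 25, 31 and 36. Its log2 fold change was 1.79 (SE 0.369, edgeR quasi-likelihood adjusted p = 4.56e-05), with a 95% confidence interval of the fold from 2.06 to 5.79. In both genes every sh-KIF11 library was above every sh-ctrl library. With a filter of at least 10 counts in every library, ITGA5 was no longer among the genes tested.

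The laminin receptor of hemidesmosomes is formed by ITGA6 and ITGB4. ITGA6 (chr2:172427354-172506282, plus strand) stood at 176.2, 173.1 and 186.3 CPM in sh-ctrl and at 176.6, 182.6 and 192.5 CPM in sh-KIF11 libraries. The groups overlapped, and the log2 fold change was 0.04 (SE 0.0506, 95% confidence interval -0.06 to 0.15, edgeR quasi-likelihood adjusted p = 0.455). ITGB4 (chr17:75721328-75757818, plus strand) stood at 27.4, 25.2 and 19.7 CPM in sh-ctrl and at 24.8, 25.4 and 25.9 CPM in sh-KIF11 libraries, with a log2 fold change of 0.07 (SE 0.0890, 95% confidence interval -0.11 to 0.25, edgeR quasi-likelihood adjusted p = 0.472). ITGB4 had the wider interval and the fewer counts, 332 to 526 per library beside 3125 to 3799 for ITGA6. Its sh-ctrl replicate 3 lay below the other libraries. What either adds to the width was not tested. ITGB4 overlaps GALK1, the galactose kinase gene, on the opposite strand. The libraries were made with a stranded kit, but whether the counting used strand is not given in the sources used here. GALK1 was lower in sh-KIF11 cells (log2 fold change -1.03).

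ITGB5 and ITGB3 encode beta partners of ITGAV. ITGB5 (chr3:124761948-124901418, minus strand) stood at 203.1, 200.6 and 187.5 CPM in sh-ctrl and at 175.7, 168.0 and 170.8 CPM in sh-KIF11 libraries. All 3 sh-KIF11 libraries were lower, and the log2 fold change was -0.20 (SE 0.0498, 95% confidence interval -0.30 to -0.10, edgeR quasi-likelihood adjusted p = 0.000504). ITGB3 (chr17:47253846-47311816, plus strand), the beta chain of the platelet fibrinogen receptor, was counted 0, 1 and 1 times in the control and 1, 4 and 2 times in the knockdown. These lie around the 3 counts that a count of 0 allows, which equal 0.145 to 0.178 CPM in these libraries, so no fold is given, and the depth is too low to detect a difference. Such limits cover counting error only.

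**Figure D2:**
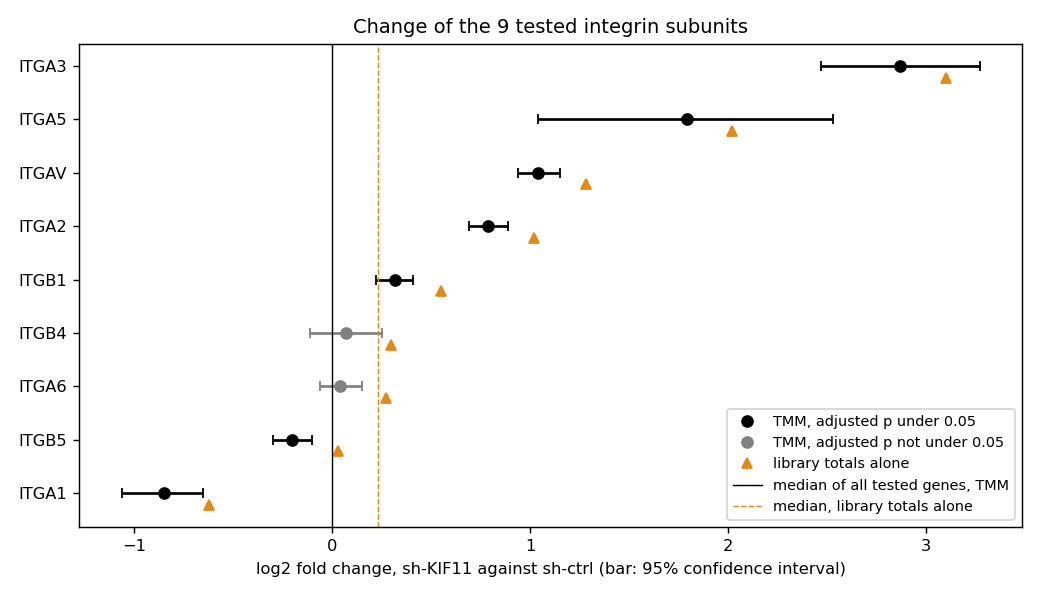
Log2 fold change of the 9 tested integrin subunits in sh-KIF11 against sh-ctrl libraries (horizontal axis), with circles and 95% confidence intervals from edgeR with TMM scaling and triangles for scaling by library totals alone. Vertical lines mark the median of all tested genes on each scale (0.00 and 0.23); the triangles of ITGA6 and ITGB4 lie near the dashed line, that of ITGB5 lies close to 0, and that of ITGA1 is the only one below 0.

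How the libraries were put on a common scale bore on the members with small changes. TMM factors were 0.922 to 0.926 in the sh-ctrl and 1.08 to 1.09 in the sh-KIF11 libraries. With library totals alone, the median of all tested genes moved to a log2 fold change of 0.23, and the genes called split into 6619 higher and 2378 lower, against 4254 and 4294 with TMM. On that scale 7 members were higher and 1 was lower. ITGA6 (0.27) and ITGB4 (0.30) were then called higher, and ITGB5 turned to 0.03 (edgeR quasi-likelihood adjusted p = 0.600). The shifted median of all tested genes lay between these values. The calls of ITGB1, ITGAV, ITGA2, ITGA3 and ITGA5 as higher and of ITGA1 as lower were the same with TMM and with library totals.

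Ratios of partner chains within a library do not depend on the scaling between libraries, so 9 known pairs were compared in this way. With 3 against 3 libraries an exact two-sided permutation test cannot give a p below 0.1, and each of the 7 pairs whose libraries did not overlap had exact permutation p = 0.1 (0.129 after adjustment over the 9 pairs). ITGAV gained on ITGB1 by a factor of 1.66 (log2 difference 0.73, SE 0.0410) and ITGA2 by a factor of 1.39 (0.48, SE 0.0253). The ratio of ITGA3 to ITGB1 was 5.94 times its sh-ctrl value and that of ITGA5 to ITGB1 was 2.73 times, both from few sh-ctrl counts. In the other direction, ITGA6 relative to ITGB1 was at 0.828 of its sh-ctrl value (log2 difference -0.27, SE 0.0337) and ITGA1 relative to ITGB1 at 0.445 (-1.17, SE 0.138). Between the beta and alpha chains of the RGD receptor, ITGB5 relative to ITGAV was at 0.422 of its sh-ctrl value. Its log2 ratio was 0.44, 0.39 and 0.15 in the sh-ctrl and -0.92, -0.91 and -0.92 in the sh-KIF11 libraries, so ITGB5 had the more counts in every sh-ctrl library and ITGAV in every sh-KIF11 library. The ratio of ITGB4 to ITGA6 overlapped between groups (log2 difference 0.05, SE 0.173, exact permutation p = 1). That of ITGB3 to ITGAV rested on at most 4 ITGB3 counts and on the 0.5 added to every count.

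**Figure D3:**
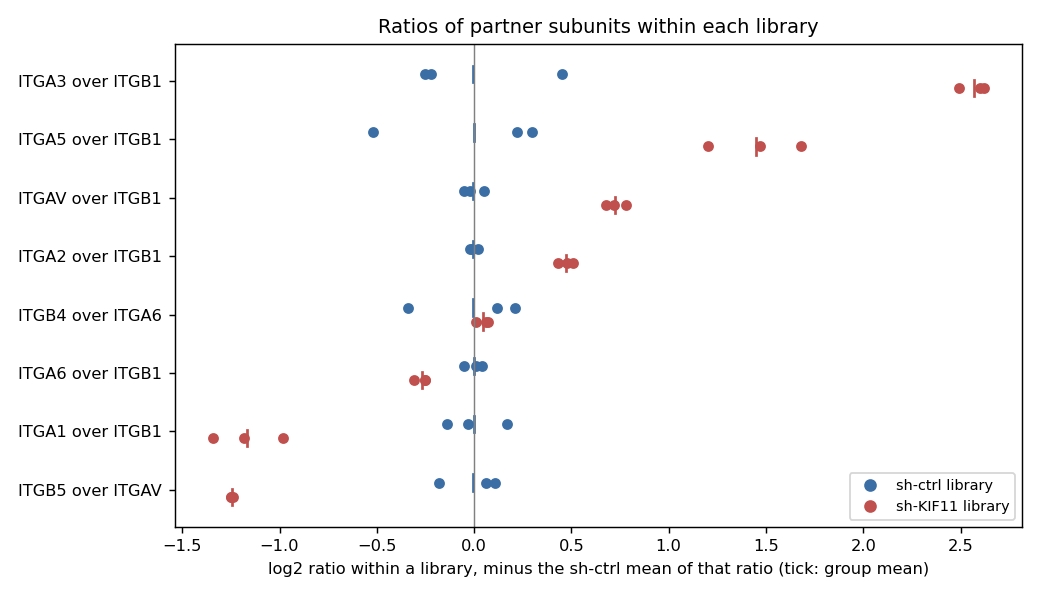
Log2 ratio of partner subunits within each library, from counts plus 0.5, minus the sh-ctrl mean of that ratio (horizontal axis), for 8 pairs; points are libraries and ticks are group means. The sh-KIF11 libraries lie to the right for ITGA3, ITGA5, ITGAV and ITGA2 over ITGB1, to the left for ITGA6 and ITGA1 over ITGB1 and ITGB5 over ITGAV, and among the sh-ctrl libraries for ITGB4 over ITGA6.

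Levels of different subunits were compared per transcript length, in the FPKM values the authors deposited. In sh-ctrl cells ITGB1 led with 134 ± 3.07 FPKM (SD, n = 3), above 97.5% of the genes with a value over 0. Then came ITGB5 (29.0 ± 1.23 FPKM), ITGA6 (26.9 ± 0.771), ITGAV (23.8 ± 1.11), ITGA2 (13.3 ± 0.278), ITGA1 (3.77 ± 0.436) and ITGB4 (1.70 ± 0.196). ITGA3 (0.143 FPKM), ITGA5 (0.0566 FPKM) and ITGB3 (listed at 0 in 2 of 3 libraries) closed the order. Only ITGB5 and ITGA6 overlapped with their neighbour. In sh-KIF11 cells ITGB1 again led with 189 ± 5.80 FPKM, and ITGAV came next with 54.2 ± 1.51. ITGA6 (30.9 ± 1.77 FPKM) and ITGB5 (29.4 ± 0.494) overlapped, followed by ITGA2 (25.1 ± 1.10). ITGA1 (2.18 ± 0.219 FPKM) and ITGB4 (2.12 ± 0.0194) overlapped as well, ahead of ITGA3 (1.28 ± 0.0968), ITGA5 (0.222 ± 0.0479) and ITGB3 (0.0166). ITGAV thus passed ITGB5 and ITGA6, and the level of ITGA2 went from 3.53 to 11.5 times that of ITGA1.

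**Figure D4:**
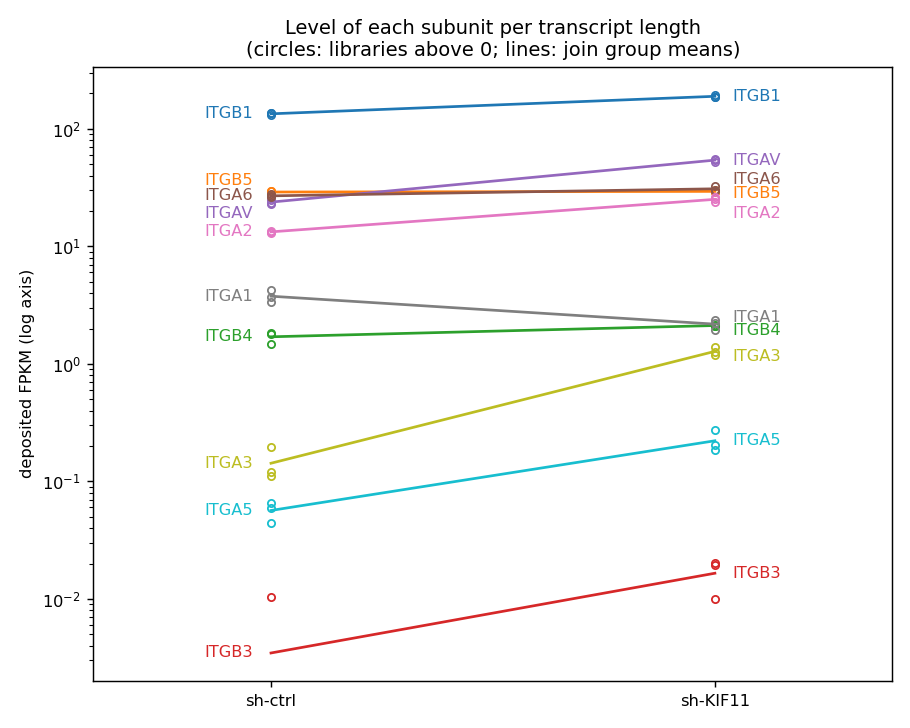
Deposited FPKM of the 10 integrin subunits on a log axis, with circles for libraries above 0 and lines joining the group means of sh-ctrl (left) and sh-KIF11 (right). The line of ITGAV crosses those of ITGA6 and ITGB5, that of ITGA1 descends to the level of ITGB4, and ITGB3, listed at 0 in 2 sh-ctrl libraries, lies at the detection limit in both groups.

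As a share of the summed FPKM of the 6 alpha chains, ITGA6 was first in every sh-ctrl library (40.2, 38.8 and 39.7%) and ITGAV in every sh-KIF11 library (49.0, 47.3 and 46.5%). The share of ITGA6 went from 39.6 ± 0.689% to 27.1 ± 0.834% and that of ITGAV from 35.0 ± 0.773% to 47.6 ± 1.30% (SD, n = 3 each). ITGA2 took 19.6 ± 0.219% and 22.1 ± 0.654%, ITGA1 5.55 ± 0.731% and 1.91 ± 0.177%, and ITGA3 0.211 ± 0.0718% and 1.12 ± 0.0503%. The groups did not overlap in any of these shares, each with the smallest p that an exact permutation test of 3 against 3 can give, 0.1. The level of ITGB1 over the summed level of the 6 alpha chains was 1.98 ± 0.0336 in sh-ctrl and 1.66 ± 0.00971 in sh-KIF11 libraries (exact permutation p = 0.1). Among the 4 beta chains, ITGB1 held 81.4 ± 0.951% and 85.7 ± 0.449% of the FPKM and ITGB5 17.6 ± 0.838% and 13.3 ± 0.438%. These shares are of RNA and not of receptors on the surface.

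**Figure D5:**
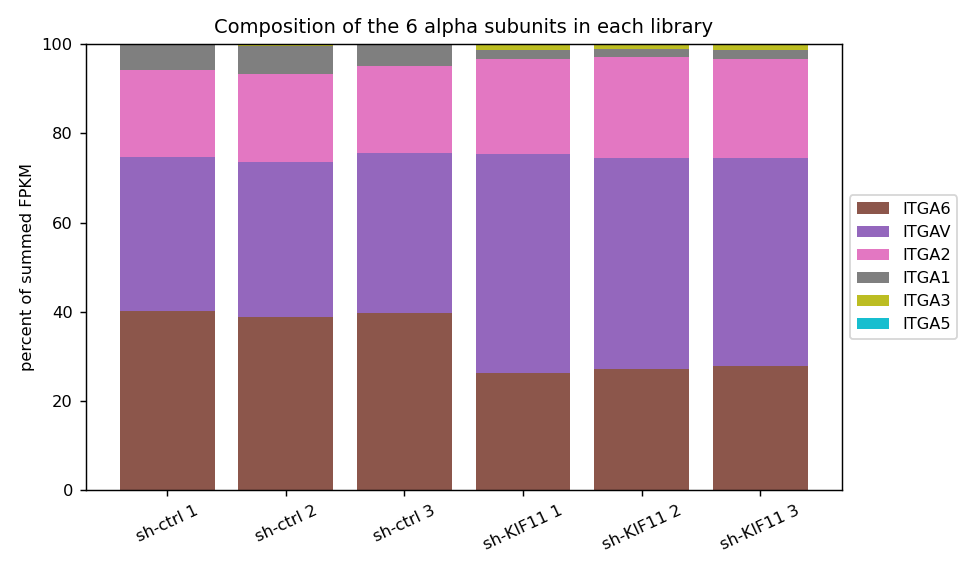
Percent of the summed FPKM of the 6 alpha subunits (vertical axis, 0 to 100) held by each of them in the 6 libraries, as stacked bars. ITGA6 holds the largest share in the 3 sh-ctrl libraries (38.8 to 40.2%) and ITGAV in the 3 sh-KIF11 libraries (46.5 to 49.0%), and the shares of ITGA3 and ITGA5 are thin bands at the top.

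Of the 16 integrin subunits outside this set, 6 were tested. ITGA10, a collagen-binding alpha chain of cartilage that also joins ITGB1, was higher, at 122, 117 and 75 counts in the knockdown against 45, 40 and 19 in the control (log2 fold change 1.40, SE 0.224, edgeR quasi-likelihood adjusted p = 7.11e-07). The leukocyte chain ITGAL was lower, at 30, 27 and 27 counts against 65, 86 and 57 (log2 fold change -1.50, SE 0.233, edgeR quasi-likelihood adjusted p = 3.61e-07). Its partner ITGB2 was lower by a log2 fold change of -0.26 (edgeR quasi-likelihood adjusted p = 0.00319), a value that was -0.03 (adjusted p = 0.739) with library totals. PTPRC, the defining leukocyte marker, had at most 1 count in any library. ITGAE, ITGA2B and ITGB7 were tested and not called, ITGA7 reached 25 counts in 1 library and was not tested, and the other 9 had at most 7 counts.

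The genes around the integrins were read from 7 lists of adhesion genes, 98 genes in all, of which 78 were tested. With 34 higher and 30 lower, 82.1% of the tested genes were called, beside 69.1% of all tested genes (34.4% higher and 34.7% lower). The split depended on the scaling, since 48 were higher and 13 lower with library totals. The median log2 fold change of these genes was 0.08, or 0.31 with library totals, beside 0.00 and 0.23 for all tested genes. The ligand list held secreted proteins that bind integrins, with or without an RGD motif. Of its 13 tested genes, 3 were higher and 8 lower (median -0.46), or 5 and 7 with library totals. The lower genes include the fibrinogen chains FGG (-1.49) and FGA (-1.48) and vitronectin, VTN (-1.24), which liver cells secrete, and the higher ones are the microfibril protein FBN1 (1.74), MFGE8 (0.96), a bridge between dying cells and phagocytes, and the matricellular protein CYR61 (0.89), all as log2 fold changes. The fibrinogen chain FGB is in both this list and the hepatocyte marker list. The summed level of the hepatocyte markers also fell, and a link between these changes was not tested. Of 7 tested collagen chains, 4 were higher and 1 lower, or 5 and 0 with library totals. COL2A1, COL4A2 and COL4A5, 3 of the 4 higher chains, passed the low-count filter only through their sh-KIF11 libraries and so had to be higher to be counted, and COL5A1, which was not called, also passed only through them. The basement membrane chains COL4A5 (7, 8 and 3 counts against 49, 37 and 28) and COL4A2 (6, 2 and 0 against 19, 37 and 28) were higher from few counts, and the abundant COL18A1 was lower (-0.29, or -0.05 with library totals). COL5A2, the higher chain that reached the filter's minimum in both groups, had 37, 31 and 20 counts against 86, 81 and 67 (1.21). Of 7 tested laminin chains 3 were higher and 3 lower, or 4 and 0 with library totals. LAMB3, among the higher chains, passed the filter only through its sh-KIF11 libraries. The log2 fold change was 1.80 for LAMC3 and 0.31 for LAMB1, with small lower values for LAMB2 (-0.21), LAMC1 (-0.18) and LAMA5 (-0.17) that were 0.02, 0.05 and 0.06 with library totals. LAMA5 lost its call without sh-ctrl replicate 1, sh-ctrl replicate 2 or sh-KIF11 replicate 3.

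Inside the cell, 8 of 24 tested plaque adaptors and actin linkers were higher and 10 lower (median -0.00), beside 34.4% of all tested genes higher and 34.7% lower. With library totals 15 were higher and 3 lower. TNS4, a tensin that binds the tail of beta chains, went from 209, 147 and 135 counts to 825, 911 and 897 (log2 fold change 2.23), and its relative TNS1 from 66, 82 and 62 to 25, 19 and 12 (-2.10). The abundant scaffold NEDD9 stood at 200.8 ± 16.9 CPM in sh-ctrl and 61.8 ± 3.35 CPM in sh-KIF11 cells (SD, n = 3 each; log2 fold change -1.70). All 9 tested adhesion kinases were called, beside 69.1% of all tested genes, 7 higher and 2 lower (median 0.26), among them PAK1 (1.79) and ROCK1 (0.74), which act on the actin cytoskeleton, and PTK2B (0.60). The lower ABL1 and CSK, both at -0.13, were each at 0.10 and not called with library totals, and neither was called without sh-ctrl replicate 1 (adjusted p = 0.157 and 0.343 by edgeR's quasi-likelihood test). In the hemidesmosome list 4 of 6 tested genes were higher and 1 lower, beside 34.4% and 34.7% of all tested genes. With library totals 5 were higher and 1 lower. Neither chain of its integrin was called with TMM. COL17A1 and LAMB3, 2 of the 4 higher genes, passed the filter only through their sh-KIF11 libraries and so had to be higher to be counted. DST, one of 2 plakins in the list beside PLEC (log2 fold change 0.26), rose from 80.6 ± 6.05 to 270.9 ± 18.0 CPM (log2 fold change 1.75). COL17A1 went from 1, 0 and 3 counts to 25, 31 and 42, and the tetraspanin CD151 was lower (-0.54). Of 15 tested partners and regulators 6 were higher and 6 lower (median -0.03), or 9 and 3 with library totals. NRP1, a co-receptor that binds integrins, had 17, 15 and 17 counts against 181, 204 and 190 (log2 fold change 3.35), and DAB2, an endocytic adaptor of beta chain tails, had 51, 37 and 30 against 264, 337 and 304 (2.74). ITGB1BP1 (-0.50) and SNX17 (-0.41), which bind the tail of ITGB1, were lower.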

How the data were processed

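mRNA libraries of HepG2 cells (sh-ctrl, n = 3, and sh-KIF11, n = 3) were analysed from 2 tables. The authors deposited raw counts per gene and a table of FPKM values, which they scaled to length and library size. Per the submitters' processing notes, the tools were bcl2fastq 1.8.4, Trimmomatic, HISAT2 2.1.0, Cufflinks 2.2.1, HTSeq 0.9.1 and DESeq, and the build was GRCh38 (hg38). Trimmomatic and the removal of low-quality reads came first; the steps of the other tools and the strand setting are not given in the sources used here. Groups and replicate numbers came from the labels. The table columns of the knockdown are named only shRNA and were read as sh-KIF11, the only shRNA target the labels list beside the control.

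The count test was edgeR 4.0.16 in R 4.3.3 (TMM, filterByExpr, quasi-likelihood test, group as the only term), which kept 12369 genes and left out 7661, and a Benjamini-Hochberg adjusted p under 0.05 over all tested genes was a call. The biological coefficient of variation was 4.87%. SEs were derived from the log2 fold change and its F statistic. Ratios used counts plus 0.5 and exact two-sided permutation tests (scipy 1.17.1). DESeq2 1.42.0 and limma 3.58.1 on log2(FPKM + 1) and log2(FPKM + 0.1) were alternatives. Levels between genes were compared in FPKM only. Gene positions are those of GENCODE release 29, and promoter windows are from RefSeq. Named list genes were taken from the up to 3 highest and 3 lowest called genes of each list with at least 1 CPM in a group, with PLEC and genes named for the filter or list overlap added. The members and lists were chosen with earlier results of these data known. Of the cell type markers, 2 are not reported here and were left out of the lists.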

Additional observations from a re-analysis of the deposited data

How the results depend on the processing

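Among the alternatives run, the number of members called higher stayed within 1.5 times of 5 (4 to 7) and was 5 with each library left out. Members called lower went from 2 to 1 with library totals alone, with limma on log2(FPKM + 1) and on log2(FPKM + 0.1), and with a 1.5-fold minimum. ITGB5 turned to log2 fold changes of 0.03, 0.02 and 0.02 in the first 3 of these. ITGA6 was called higher in these 3 and with upper-quartile scaling (0.12), and ITGB4 in these 3 (0.30, 0.21 and 0.31). The median of all tested genes moved to 0.23, 0.12 and 0.17. The 1.5-fold minimum left 3179 tested genes and 27 adhesion genes called. Other integrin subunits called went from 3 to 5 without a low-count filter, and ranged from 3 to 5 with each library left out, 5 being reached without sh-ctrl replicate 1 and without sh-KIF11 replicate 1. With each library left out, the log2 ratio difference of ITGB3 to ITGAV ranged from -0.45 (without sh-ctrl replicate 1) to 0.46 and that of ITGB4 to ITGA6 from -0.12 (without sh-ctrl replicate 3) to 0.15. The deviations of same-numbered libraries correlated at 0.030, -0.0185 and -0.00253, so the numbers were not taken as pairs. A replicate block called 8607 genes in place of 8548, with 5 members higher and 2 lower. Depth limits ITGB3, ITGA5 and the sh-ctrl level of ITGA3. The splits of each adhesion list with library totals and the member split and median without ITGA5 were chosen after seeing the data.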
